A study of Mus musculus with 6 samples.

Results

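The genes described here are 10 members of the adherens junction, 6 cadherins (Cdh2, Cdh3, Cdh4, Cdh6, Cdh11 and Cdh13) and 4 catenins (Ctnna1, Ctnnb1, Ctnnd1 and Jup), chosen by symbol from the 16982 genes of the count table. All 10 had a row in that table and all 10 passed the filter on low counts. They were read in 3 WT and 3 Rnf20 knockout (KO) cultures of reprogrammable cells at day 3, where the question was how loss of the H2B ubiquitin ligase RNF20 alters the shift from mesenchymal to epithelial expression. Both genotypes are on a C57BL/6 background and are mouse embryonic fibroblasts (MEF) given the 4 reprogramming factors OCT4, SOX2, C-MYC and KLF4 by retrovirus. The knockout cells came from floxed Rnf20 embryos that carry a ubiquitously expressed, tamoxifen-inducible Cre, and the deletion was induced with 4-OH tamoxifen. All 6 cultures are labelled untreated, and the sources used here do not state whether the WT cells carried floxed alleles, Cre or the drug. The study's protocol replates infected cells on MEF feeder layers, and whether feeder RNA was part of these samples was not stated. Nothing in the labels says that the replicates were separate embryos or infections, so the p-values measure the spread between these cultures only.

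Cadherins are calcium-dependent adhesion proteins that bind the same cadherin on a neighbouring cell. The tails of classical cadherins hold β-catenin or plakoglobin (the product of Jup), which in turn recruit αE-catenin (Ctnna1) and through it actin, while p120-catenin (Ctnnd1) holds the cadherin at the membrane. Fibroblasts carry N-cadherin (Cdh2) and cadherin-11 (Cdh11), epithelia carry E-cadherin (Cdh1) and P-cadherin (Cdh3), and the exchange of the first kind for the second is known as the cadherin switch of reprogramming.

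The coding ends of 5 cadherins are shown because the members differ there in what they can bind. In each of the first 4 the window is the stretch of 60 bases, among the last 120 coding bases, in which most bases are shared, within the part that encodes the β-catenin-binding tail, and for Cdh13 it is the last 60 coding bases. Capitals mark the 37 bases that are the same in Cdh3, Cdh4, Cdh6 and Cdh11, and all are written 5′ to 3′ from GENCODE M21 transcripts of GRCm38.
Cdh3: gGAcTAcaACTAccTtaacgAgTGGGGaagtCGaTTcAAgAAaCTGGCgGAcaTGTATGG
Cdh4: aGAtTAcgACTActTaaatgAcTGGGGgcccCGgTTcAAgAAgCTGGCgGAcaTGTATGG
Cdh6: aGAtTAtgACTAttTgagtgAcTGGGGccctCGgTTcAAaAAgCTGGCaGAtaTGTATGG
Cdh11: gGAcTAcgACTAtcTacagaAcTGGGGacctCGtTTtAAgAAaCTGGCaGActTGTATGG
Cdh13: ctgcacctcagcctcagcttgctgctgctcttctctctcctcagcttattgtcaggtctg
Over these windows Cdh3 shared 78.3% of its bases with Cdh4, also a type I cadherin, 78.3% with Cdh11 and 70% with Cdh6, which are type II cadherins. The windows of these 4 genes each lie in the last exon, for example exon 16 of 16 in Cdh3 (chromosome 8, 106555372 to 106555431, plus strand) and exon 13 of 13 in Cdh11 (chromosome 8, 102634345 to 102634404, minus strand). The 26-base pattern TTNAANAANCTGGCNGANNTGTATGG, read from these 4 windows, had no match in the coding sequence of Cdh13. In the protein-coding transcripts of 21877 genes, untranslated parts included, it matched 4 genes on the sense strand (0.0183%), which are the genes it was read from, and 0 on the other strand. Those 4 matches were fixed by how the pattern was made. Cdh2, whose window is not shown, did not match either although N-cadherin has a catenin-binding tail, so the pattern does not mark catenin binding. Cdh13 encodes T-cadherin, which is held in the membrane by a lipid anchor and has no catenin-binding tail.

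The libraries held 20545442 to 21746898 counts, and a gene at 3 counts lies at 0.142 to 0.143 CPM, the scale used below, in which counts are scaled to a common library size after TMM normalization. Rnf20 was at 106 to 107 CPM in WT and 16.4 to 18.7 CPM in KO libraries, and the KO mean was 16.8% of the WT mean, counted over the whole gene although only some of its exons are floxed. KO replicate 3 stood apart from the other KO libraries. The chi-square statistic of counts per gene was 6.04 to 8.92 between WT libraries, 8.57 between KO replicates 1 and 2, and 92.4 and 101 between KO replicate 3 and those 2. Ddx3y, on the Y chromosome, had 0 counts in KO replicates 1 and 3 and 94.4 to 127.5 CPM elsewhere. Its presence is thus partly confounded with genotype, in every WT library and in KO replicate 2 only. All 10 fibroblast markers were above 1 CPM on average, Col1a1 being the most abundant, and their summed level was 30980 to 33680 CPM in WT and 32540, 40660 and 22030 CPM in KO replicates 1 to 3. Of these Thy1, named after its values were seen, was the only one that fell in KO cells (log2 fold change -1.11), and 0 rose. Pdgfra, Fn1 and Vim, also named afterwards, had log2 fold changes of -1.22, 0.56 and 0.29 and did not pass. The KO libraries of Pdgfra all lay below WT, and those of Fn1 and Vim all lay above it. Of 11 epithelial markers 6 were above 1 CPM, with sums of 63.1 to 69.9 CPM in WT and 86.8, 60.9 and 24.7 CPM in KO libraries, and Cldn3, also named afterwards, fell (log2 fold change -2.16). Krt19, the most abundant of them over all libraries, was at 12.7 to 15.4 CPM in WT and 43.2, 29.7 and 18.4 CPM in KO libraries. Without Krt19, left out after its values were seen, the sum of the other 10 was 49.9 to 54.5 CPM in WT and 43.6, 31.1 and 6.29 CPM in KO libraries. Krt8, the most abundant in WT and named afterwards, was at 28.4 to 30.3 CPM in WT and 18.1, 12.4 and 0.714 CPM in KO libraries. All 7 macrophage markers were above 1 CPM, with sums of 22.0 to 40.2 CPM in WT and 29.9, 22.3 and 76.0 CPM in KO libraries, of which Adgre1 gave 31.9 CPM in KO replicate 3 and 4.27 CPM or less in the others. The sums of 7 endothelial markers were 48.7 to 58.9 CPM in WT and 67.2, 54.0 and 32.3 CPM in KO, of which Tek gave 30.8 to 64.5 CPM, while Pecam1 and Cdh5 were below 1 CPM and Emcn was at 0 in every WT library. Schwann and neural crest markers summed to 15.9 to 17.2 CPM in WT and 18.9, 30.8 and 15.4 CPM in KO, and the 4 skeletal muscle markers that had a row to 7.08 to 8.92 CPM in WT and 12.5, 7.83 and 4.29 CPM in KO, nearly all from Des, with Myod1 and Myog at 0 in every WT library. The part of these cells in the results below was not tested, and in bulk RNA fewer cells of a type and less RNA per cell cannot be told apart.

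Cdh2 and Cdh13 rose in KO cells, no member fell, and the only change over 2-fold was that of Cdh3, which was lower but did not pass the test. A member is said to have risen or fallen where its p from the quasi-likelihood test of edgeR, adjusted by Benjamini-Hochberg over 13386 genes, was under 0.01. At this threshold 2 of the 10 members were higher, against 4.98% of all genes tested, and 0 were lower, against 4.89%. At an unadjusted p under 0.05 there were 4 higher and 1 lower members, against 22.5% and 23.0% of all genes. DESeq2 called 4 higher and 1 lower (Cdh3) at an adjusted p under 0.01, against 13.8% and 13.1% of all genes. In 8 members the log2 fold change was positive, and its median over the members was 0.39, beside a median of -0.00032 over all genes tested. All 3 KO libraries lay above all 3 WT libraries in 4 members (Cdh2, Cdh13, Ctnna1 and Ctnnd1; 26.6% of all genes) and below them in 1 (Cdh3; 28.2% of all genes), so that 5 of 10 did not overlap, against 54.8% of all genes. By the study's fuller rule, which adds a change over 2-fold and a mean FPKM over 1, 0 members were called in the edgeR fit, where 1.50% of genes were called higher and 2.08% lower. DESeq2 called 1, Cdh3, by this rule. The study itself named Cdh3 among its downregulated genes. Without KO replicate 3, 7 members were higher and 1 lower at an adjusted p under 0.01, against 16.4% and 16.7% of all genes. With any one of the other 5 libraries left out, 0 members were higher and 0 lower at this threshold. Few of all genes passed in those fits, 0 to 3 in a direction without a WT library. Without KO replicate 1, 86 of 13548 genes were higher and 63 lower, and without KO replicate 2, 55 of 13563 were higher and 33 lower.

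**Figure D1:**
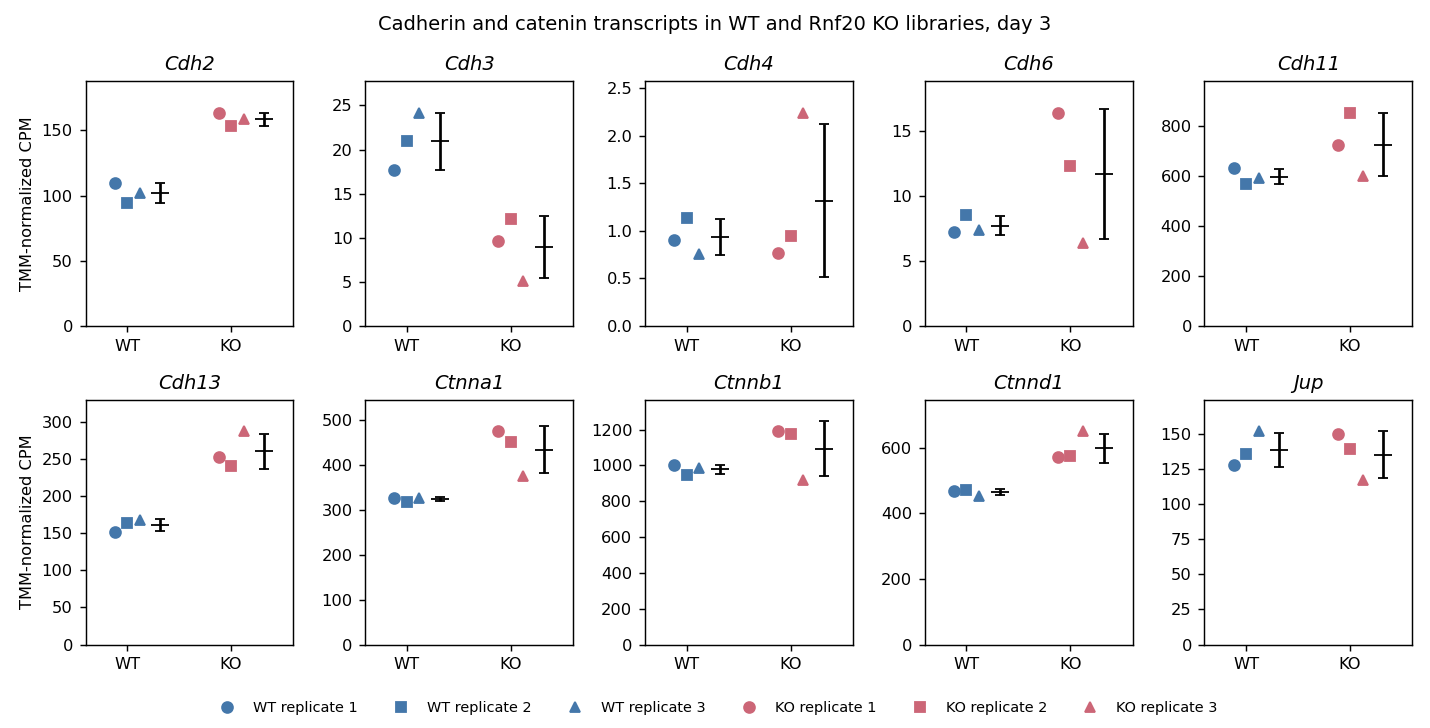
TMM-normalized CPM of each of the 10 members in the 3 WT (blue) and 3 KO (red) libraries, with replicates 1, 2 and 3 as circles, squares and triangles and the mean ± SD (n = 3) in black beside them. Every axis starts at 0. The KO libraries lie above all WT libraries for Cdh2, Cdh13, Ctnna1 and Ctnnd1 and below them for Cdh3, and KO replicate 3 is the lowest KO library in 6 of the 10 panels.

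Cdh2, which encodes N-cadherin, lies on chromosome 18 of GRCm38 (16588877 to 16809246, minus strand). Its level was 109.5, 94.5 and 102 CPM in WT replicates 1 to 3 and 163, 153 and 159 CPM in KO replicates 1 to 3. The 3 KO libraries were close together and the lowest of them lay above the highest WT library. The KO mean was 1.55-fold the WT mean, a log2 fold change of 0.63 (SE 0.078, adjusted p = 0.00394 in the edgeR quasi-likelihood test). The log2 fold change without KO replicate 3 was also 0.63, and the adjusted p was 5.08e-05 in the same test. With one of the other 5 libraries left out it was 0.58 to 0.69, and the adjusted p in the same test was 0.0221, 0.0275 and 0.0324 without WT replicate 1, 2 and 3, and 0.0130 and 0.0144 without KO replicate 1 and 2.

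Cdh13, which encodes T-cadherin, a receptor for adiponectin and low-density lipoprotein without a catenin-binding tail, lies on chromosome 8 (118283733 to 119324921, plus strand). Its level was 152, 164 and 167 CPM in WT and 253, 241 and 287 CPM in KO replicates 1 to 3. The groups did not overlap, and KO replicate 3 was the highest of all. The KO mean was 1.62-fold the WT mean, a log2 fold change of 0.70 (SE 0.089, adjusted p = 0.00432 in the edgeR quasi-likelihood test). Without KO replicate 3 it was 0.62 and the adjusted p was 2.19e-05 in the same test. The adjusted p was 0.0274, 0.0308 and 0.0311 without WT replicate 1, 2 and 3, and 0.0125 and 0.0130 without KO replicate 1 and 2, with log2 fold changes of 0.65 to 0.75. In the deposited FPKM, the authors' level per length of transcript and depth, the KO libraries were at 81.2, 75.2 and 74.9 and the WT libraries 51.7, 53.5 and 56.9, so that KO replicate 3 was the lowest KO library on that scale. The groups did not overlap there either, and limma on log2 FPKM gave a difference of 0.51.

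Cdh3, which encodes P-cadherin of basal epithelia, was the member with the largest fold change and the only one of the 6 member cadherins whose KO libraries all lay below WT. It lies on the plus strand of chromosome 8 (106510891 to 106557297). The study reported Cdh3 as downregulated in its knockout cells, by RNA-seq and by RT-qPCR. The RT-qPCR primers that the study designed for it are shown because they place this second readout on the gene.
Cdh3 forward primer: aggaggaccagaagatc
Cdh3 reverse primer: ggtggtgggagggtttc
Both matched the coding part of transcript Cdh3-201 once, the forward primer in exon 10 of 16 (106543874 to 106543890) and the reverse primer, on the minus strand, in exon 12 (106545003 to 106545019), with a product of 182 bases that spans 2 introns. Cdh3 had 372, 442 and 509 counts in WT and 203, 255 and 107 counts in KO replicates 1 to 3. In normalized units these are 17.7, 21.0 and 24.2 CPM in WT and 9.69, 12.1 and 5.10 CPM in KO. KO replicate 3 had the lowest level, and its distance from the other KO libraries sets the spread of the KO group. The KO mean was 42.8% of the WT mean, a log2 fold change of -1.22 (SE 0.302, adjusted p = 0.0244 in the edgeR quasi-likelihood test). By library the difference from the WT mean was -1.11, -0.79 and -2.04 on the log2 scale in KO replicates 1 to 3. Without KO replicate 3 the log2 fold change was -0.94 and the adjusted p was 0.000570 in the same test. Beside it, the 11 epithelial markers summed to 63.1 to 69.9 CPM in WT and 86.8, 60.9 and 24.7 CPM in KO replicates 1 to 3, so KO replicate 1 was above WT. Only the sum without Krt19, left out after its values were seen, was below WT in every KO library. The part of epithelial cells in the level of Cdh3 was not tested. Cdh1, which encodes E-cadherin and starts 46053 bases after the end of Cdh3 on the same strand, was at 9.98, 9.82 and 10.01 CPM in WT and 13.4, 9.40 and 1.81 CPM in KO replicates 1 to 3. Its log2 fold change of -0.28 (SE 0.587, adjusted p = 0.740 in the same test) was 0.20 without KO replicate 3.

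Cdh11, Cdh6 and Cdh4 had overlapping groups, and KO replicate 3 differed in each from the other KO libraries. Cdh11, the cadherin-11 of mesenchyme (chromosome 8, 102632095 to 102785642, minus strand), was at 631, 569.8 and 592 CPM in WT and 724, 853 and 602.5 CPM in KO replicates 1 to 3. KO replicates 1 and 2 were above every WT library and KO replicate 3 lay among them. Its log2 fold change was 0.28 (SE 0.132, adjusted p = 0.142 in the edgeR quasi-likelihood test), and 0.40 without KO replicate 3 (adjusted p = 0.00148 in the same test). Cdh6, a type II cadherin of kidney and neural crest (chromosome 15, 13028701 to 13173675, minus strand), was at 7.23, 8.54 and 7.36 CPM in WT and 16.4, 12.3 and 6.38 CPM in KO. KO replicates 1 and 2 were again the highest libraries, whereas KO replicate 3 was the lowest of all 6. For Cdh6 the log2 fold change was 0.60 (SE 0.322, adjusted p = 0.190), and 0.90 without KO replicate 3 (adjusted p = 0.000851), both in the same test. Cdh4, the R-cadherin of retina and muscle (chromosome 2, 179442431 to 179899373, plus strand), was near the limit of detection. Its row carries a suffix in the table whose meaning was not stated. It held 19, 24 and 16 counts in WT and 16, 20 and 47 in KO replicates 1 to 3, so that KO replicate 3 alone was high. The log2 fold change of Cdh4 was 0.49 (SE 0.471, adjusted p = 0.443) and changed sign to -0.12 without KO replicate 3 (adjusted p = 0.816 in the same test).

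Among the catenins, αE-catenin and p120-catenin transcripts were higher in every KO library than in any WT library, β-catenin was so in 2 of 3 KO libraries and plakoglobin in 0, and no catenin passed the threshold with all libraries. Ctnna1, which encodes αE-catenin (chromosome 18, 35118859 to 35254779, plus strand), was at 326, 317.5 and 326 CPM in WT and 474, 451 and 374 CPM in KO replicates 1 to 3. The WT libraries lay close together, and KO replicate 3 was the closest to them. The log2 fold change of Ctnna1 was 0.42 (SE 0.099, adjusted p = 0.0213 in the edgeR quasi-likelihood test), and 0.52 without KO replicate 3 (adjusted p = 2.82e-05 in the same test). Lrrtm2 overlaps the exons of Ctnna1 on the other strand and held 7 to 27 counts. The part of the overlap in the Ctnna1 counts was not tested, because the use of strand in counting is not given. Ctnnd1, which encodes p120-catenin (chromosome 2, 84600071 to 84650765, minus strand), was at 466, 472 and 453 CPM in WT and 572, 573 and 649 CPM in KO. Here KO replicate 3 was the furthest from WT. Its log2 fold change was 0.37 (SE 0.078, adjusted p = 0.0159), and 0.31 without KO replicate 3 (adjusted p = 0.000681 in the same test). The annotation has a gene, Gm28635, that shares exons with Ctnnd1 on the same strand and has no row of its own, so the Ctnnd1 counts may hold its reads. DESeq2 called both genes, with adjusted p-values of 0.000868 for Ctnna1 and 0.000128 for Ctnnd1.

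Ctnnb1, which encodes β-catenin (chromosome 9, 120929216 to 120960507, plus strand), was at 999, 948 and 983.5 CPM in WT and 1189, 1175 and 918 CPM in KO replicates 1 to 3. KO replicates 1 and 2 exceeded every WT library and KO replicate 3 was below all of them. The log2 fold change of Ctnnb1 was 0.16 (SE 0.115, adjusted p = 0.304 in the edgeR quasi-likelihood test) and was 0.28 without KO replicate 3 (adjusted p = 0.00190 in the same test). Exons of Ulk4 overlap those of Ctnnb1 on the other strand, and Ulk4 held 39 to 108 counts. The part of this overlap in the Ctnnb1 counts was likewise not tested. Mir7090 overlaps Ctnnb1 exons on the same strand and has no row of its own, so the Ctnnb1 counts may hold its reads. Jup, which encodes plakoglobin, a catenin of both adherens junctions and desmosomes (chromosome 11, 100368958 to 100397763, minus strand), was at 128, 136 and 152 CPM in WT and 149.7, 139 and 117 CPM in KO. The 2 groups covered nearly the same range. Its log2 fold change of -0.034 (SE 0.114, adjusted p = 0.837 in the same test) was 0.063 without KO replicate 3 and 0.033 without WT replicate 3.

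**Figure D2:**
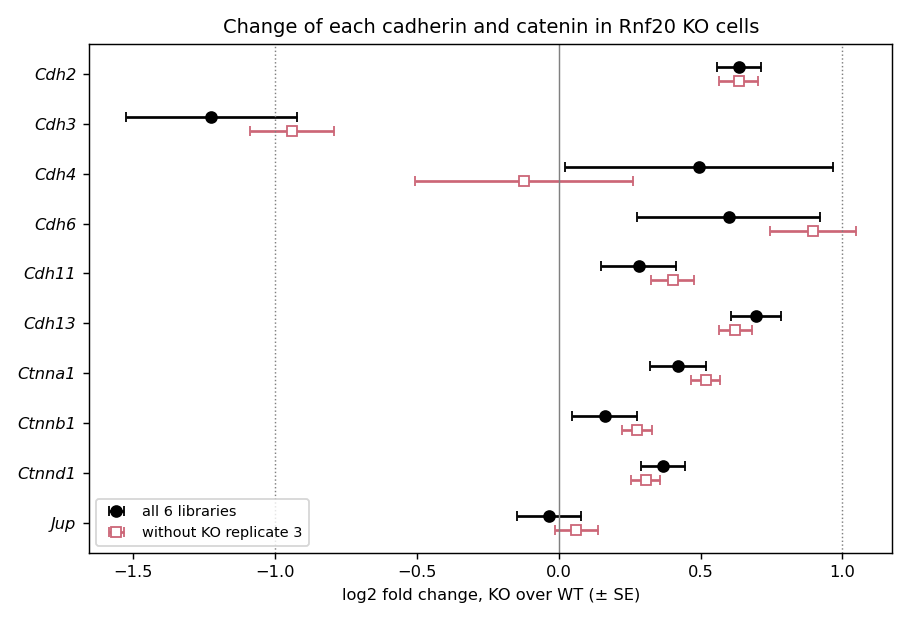
Log2 fold change of KO over WT with its SE for the 10 members, from all 6 libraries (black circles) and without KO replicate 3 (open red squares), with dotted lines at a 2-fold change. Cdh2 stays at 0.63 in both, Cdh3 goes from -1.22 to -0.94 and Cdh6 from 0.60 to 0.90, and Cdh4 and Jup change sign.

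Levels of different genes were compared per length in the deposited FPKM, which lists all members but Cdh4. In WT cells the order of mean FPKM was Ctnnb1 (312 ± 8.87, SD, n = 3), Cdh11 (119 ± 6.90), Ctnnd1 (101 ± 0.555), Ctnna1 (86.1 ± 1.50), Cdh13 (54.0 ± 2.65), Jup (41.9 ± 4.37), Cdh2 (23.45 ± 1.73), Cdh3 (4.45 ± 0.775) and Cdh6 (1.02 ± 0.090). No 2 neighbours in this order overlapped between WT libraries. In KO cells Ctnnd1 (125 ± 5.12 FPKM), Ctnna1 (119 ± 9.95) and Cdh11 (144 ± 28.5) overlapped, as did Jup (40.3 ± 3.88) and Cdh2 (36.3 ± 1.56). Cdh3 (1.86 ± 0.727 FPKM) and Cdh6 (1.53 ± 0.699) also overlapped in KO libraries. Thus N-cadherin transcripts were below plakoglobin within every WT and KO library. In KO replicates 1 to 3 Cdh2 was at 37.8, 34.7 and 36.28 FPKM and Jup at 44.0, 40.65 and 36.29 FPKM. They were nearly equal in KO replicate 3, and the overlap is between libraries only. The epithelial cadherin Cdh3 was a minor species in both genotypes.

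The make-up of the cadherin transcripts was then read as each gene's share of the 6 cadherins in counts per kilobase of the gene lengths in the count table. The sum of the 6 was 170.2, 161 and 168 CPM per kilobase in WT and 223, 238 and 209 CPM per kilobase in KO replicates 1 to 3. On this scale the sum of these 6 genes was thus higher in every KO library than in any WT library. Cdh11 made up 60.4%, 57.6% and 57.4% in WT and 53.0%, 58.2% and 46.9% in KO. The share of Cdh13 was 23.5%, 26.8% and 26.4% in WT and 30.03%, 26.7% and 36.3% in KO, and that of Cdh2 was 13.3%, 12.1% and 12.6% in WT and 15.1%, 13.3% and 15.7% in KO. Cdh3 was the only one whose shares did not overlap, with 2.17%, 2.72% and 3.01% in WT and 0.910%, 1.06% and 0.510% in KO. Its mean share was lower by 1.81 percentage points (difference KO minus WT -1.81, SE 0.296, two-sided exact permutation p = 0.1, the smallest that 3 against 3 libraries allow; adjusted p = 0.4 over 6 shares). For Cdh2, Cdh13 and Cdh11 the differences were 2.04, 5.46 and -5.76 percentage points with exact permutation p-values of 0.2, 0.2 and 0.3, and without KO replicate 3 they were 1.55, 2.81 and -2.88. Cdh6 and Cdh4 made up less than 1% in every library, and their differences were 0.066 and 0.0064 percentage points (exact permutation p = 0.8 and 1). With Cdh13 left out of the sum, the shares of Cdh2 were 17.4%, 16.6% and 17.1% in WT and 21.65%, 18.1% and 24.6% in KO, without overlap. By FPKM the shares of Cdh2 among the 5 listed cadherins, Cdh13 included, were 12.01%, 11.1% and 11.6% in WT and 14.1%, 12.2% and 15.9% in KO, also without overlap.

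**Figure D3:**
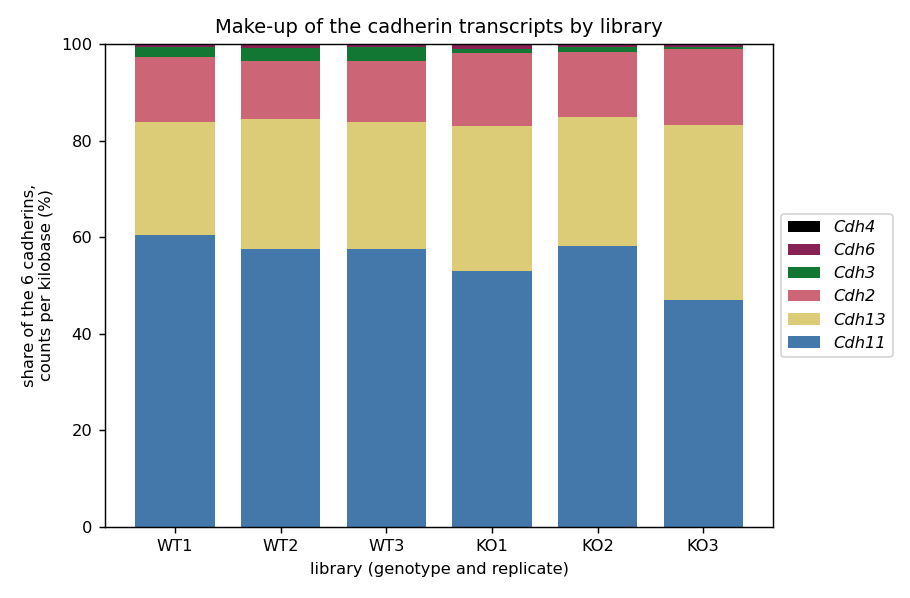
Share of each cadherin in the counts per kilobase summed over the 6 cadherins (y axis, percent) in each library (x axis). Cdh11, Cdh13 and Cdh2 fill nearly all of every bar, and the green band of Cdh3 narrows from 2.17% to 3.01% in the WT libraries to 0.510% to 1.06% in the KO libraries.

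Ratios between members within a library do not depend on the scaling between libraries. N-cadherin transcripts exceeded P-cadherin transcripts per kilobase by 6.12, 4.45 and 4.18-fold in WT and by 16.6, 12.5 and 30.8-fold in KO replicates 1 to 3. The groups did not overlap, the mean log2 ratio was 2.28 ± 0.295 in WT and 4.21 ± 0.664 in KO (SD, n = 3), and the difference was 1.94 (SE 0.419). Without KO replicate 3 this difference was 1.57. The log2 ratio of Cdh11 to Cdh3 was higher in KO by 1.57 (SE 0.286) and that of Cdh2 to Cdh11 by 0.37 (SE 0.162), both without overlap. Without KO replicate 3 the difference for Cdh2 over Cdh11 was 0.24, against 0.37 with all libraries. Jup over Ctnnb1 went from 0.144, 0.162 and 0.174 in WT to 0.142, 0.134 and 0.143 in KO, a log2 difference of -0.19 (SE 0.085), and both genes were low in KO replicate 3. The 5 cadherins with a catenin-binding tail over Ctnnb1 and Jup together went from 0.412, 0.388 and 0.388 in WT to 0.416, 0.475 and 0.460 in KO, a log2 difference of 0.18 (SE 0.065) in which KO replicate 1 lay just above the highest WT library. Each of these 5 ratios had a two-sided exact permutation p of 0.1, the smallest possible, and an adjusted p of 0.12 over 6 ratios. The log2 ratio of Ctnnd1 to Ctnnb1 overlapped, with a difference of 0.21 (SE 0.185, exact permutation p = 0.3), and of 0.030 without KO replicate 3. The level of that ratio has no meaning here, because the table gives Ctnnd1 a length of 18552 bases while its longest annotated transcript has 6362, and the difference between genotypes does not depend on the length.

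**Figure D4:**
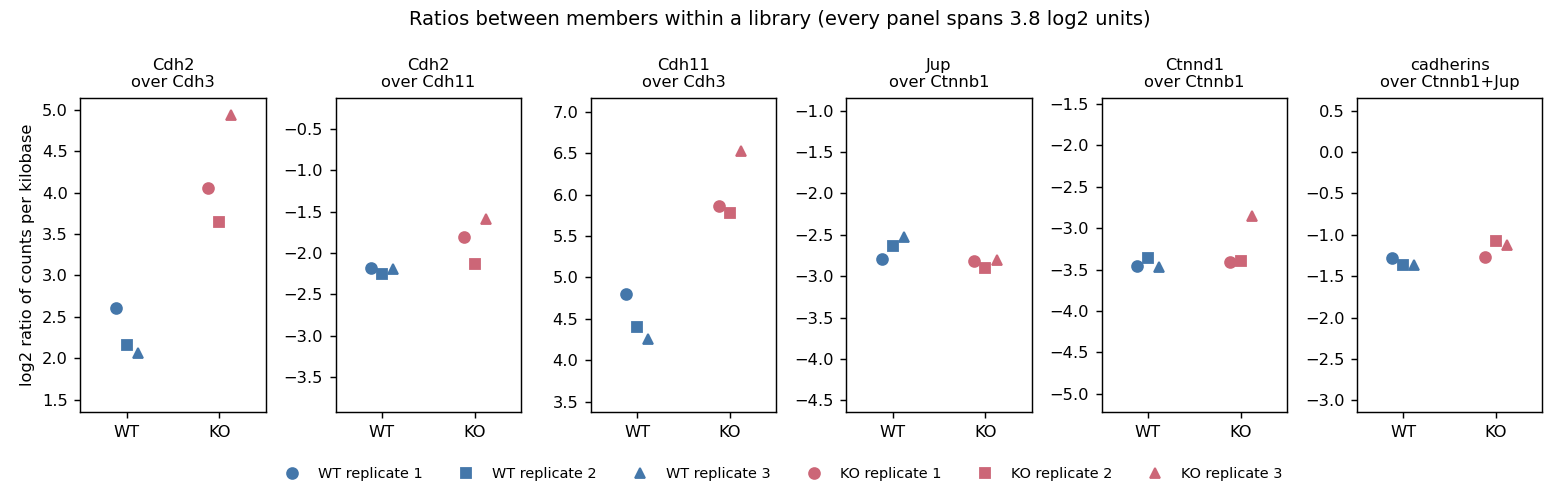
Log2 ratio of counts per kilobase between members in each library, for WT (blue) and KO (red) with replicates 1, 2 and 3 as circles, squares and triangles, on axes that each span the same number of log2 units. The ratio of Cdh2 to Cdh3 separates the genotypes by 1.94 and that of Cdh11 to Cdh3 by 1.57, while the others differ by 0.37 or less in size.

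Other genes of the junction were read as 7 lists of 80 genes in all, of which 69 were tested, and of these 7 were higher and 2 lower in KO cells at an adjusted p under 0.01 in the edgeR quasi-likelihood test. The shares to compare with are the 4.98% and 4.89% of all genes. Without KO replicate 3 there were 26 higher and 6 lower, against 16.4% and 16.7% of all genes. Without WT replicate 1, 2 or 3 there were 0 in either direction, where 0 to 3 of all genes were called in a direction. There were 2 and 1 higher without KO replicate 1 and 2, where 86 of 13548 and 55 of 13563 genes were higher. Of 15 other cadherins 13 had a row, 9 were tested and 0 passed in either direction, with a median log2 fold change of -0.13. At an unadjusted p under 0.05 the same test had 2 higher and 2 lower (22.5% and 23.0% of all genes), and DESeq2 called 1 higher and 1 lower (13.8% and 13.1% of all genes). The one with the highest level per kilobase in WT was Cdh10, a neural type II cadherin, at 20.01 ± 4.19 CPM in WT and 19.8 ± 3.67 CPM in KO (SD, n = 3).

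Of the 9 catenin relatives tested, 1 rose and 1 fell (median log2 fold change -0.15), against 4.98% and 4.89% of all genes. At an unadjusted p under 0.05 the edgeR test had 2 higher and 2 lower (22.5% and 23.0% of all genes). DESeq2 called 2 higher and 1 lower (13.8% and 13.1% of all genes). The gene that rose and the gene that fell are neural members of the family. Ctnnd2, which encodes δ-catenin of the p120 group, was at 9.70, 11.6 and 11.2 CPM in WT and 36.7, 29.1 and 26.1 CPM in KO replicates 1 to 3, a log2 fold change of 1.50 (SE 0.153, adjusted p = 0.00315 in the edgeR quasi-likelihood test). Ctnna2, which encodes αN-catenin, was at 4.52, 7.17 and 6.31 CPM in WT and 1.43, 2.42 and 1.57 CPM in KO, a log2 fold change of -1.73 (SE 0.292, adjusted p = 0.00837). In both genes the groups did not overlap. So αE-catenin was higher in all KO libraries while the scarcer αN-catenin fell, and p120-catenin was higher in all while the scarcer δ-catenin rose. Pkp1, a plakophilin of desmosomes and the member of this list with the highest level per kilobase, was at 65.6 ± 9.23 CPM in WT and at 45.8, 36.5 and 11.2 CPM in KO replicates 1 to 3 (adjusted p = 0.110).

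Of the 16 linkers and nectins, which tie cadherins to actin or form a parallel adhesion system, Actn1 rose and 0 fell (median log2 fold change 0.25), while at an unadjusted p under 0.05 the same test had 7 higher and 2 lower (22.5% and 23.0% of all genes) and DESeq2 called 6 higher and 1 lower (13.8% and 13.1% of all genes). Actn1, which encodes α-actinin-1, a cross-linker of actin, rose from 359 ± 25.0 CPM to 567, 606.5 and 778.5 CPM in KO replicates 1 to 3, a log2 fold change of 0.86 (SE 0.133, adjusted p = 0.00679 in the edgeR quasi-likelihood test). Actn4, the most abundant of the list per kilobase, was at 632 ± 35.1 CPM in WT and 786 ± 35.3 CPM in KO (adjusted p = 0.0251). Of 4 desmosome genes tested, Perp rose, with 34.8 ± 2.55 CPM in WT and 98.9, 89.2 and 90.9 CPM in KO (log2 fold change 1.42, SE 0.087, adjusted p = 0.00153). At an unadjusted p under 0.05 the desmosome list had 2 higher and 0 lower (22.5% and 23.0% of all genes). DESeq2 called 2 higher and 0 lower in it (13.8% and 13.1% of all genes). Perp encodes a membrane protein that desmosomes need and is also a target of p53.

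Of 9 proteases that cut or mature cadherins, Adam15 rose (196 ± 8.40 to 264 ± 13.3 CPM, log2 fold change 0.43, adjusted p = 0.00794) and Pcsk5, a proprotein convertase, fell (38.6 ± 3.33 to 16.4 ± 4.07 CPM, log2 fold change -1.23, adjusted p = 0.00679 in the edgeR quasi-likelihood test). At an unadjusted p under 0.05 the protease list had 4 higher and 1 lower (22.5% and 23.0% of all genes). DESeq2 called 2 higher and 1 lower in it (13.8% and 13.1% of all genes). Mmp14, the highest of the list per kilobase, was at 852 ± 56.5 CPM in WT and 875 ± 171 CPM in KO. Of 13 kinases and phosphatases of the complex 3 rose and 0 fell. At an unadjusted p under 0.05 there were 6 higher and 0 lower (22.5% and 23.0% of all genes), and DESeq2 called 5 higher and 0 lower (13.8% and 13.1% of all genes). All 3 that rose are tyrosine phosphatases: Ptpn14 with a log2 fold change of 0.72, Ptprj with 0.55 and Ptpn11 with 0.51 (adjusted p = 0.00641, 0.00941 and 0.00840 in the edgeR quasi-likelihood test). Ptpn1, Ptprf, Ptprk and Ptprm, named after their values were seen, are also tyrosine phosphatases of this list and did not pass. Their log2 fold changes were 0.0080, -0.20, 0.36 and 0.15. Csnk2a1, a catalytic subunit of casein kinase 2 and the highest of the list per kilobase, was at 184 ± 7.60 CPM in WT and 199 ± 19.9 CPM in KO. None of the 9 genes of the β-catenin destruction complex passed in either direction (median log2 fold change 0.13), and at an unadjusted p under 0.05 the same test had 1 higher and 1 lower (22.5% and 23.0% of all genes), with DESeq2 calling 1 higher and 1 lower (13.8% and 13.1% of all genes). Csnk1a1, which encodes casein kinase 1α and was the highest of them per kilobase, was at 363 ± 11.8 CPM in WT and 396 ± 2.02 CPM in KO.

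**Figure D5:**
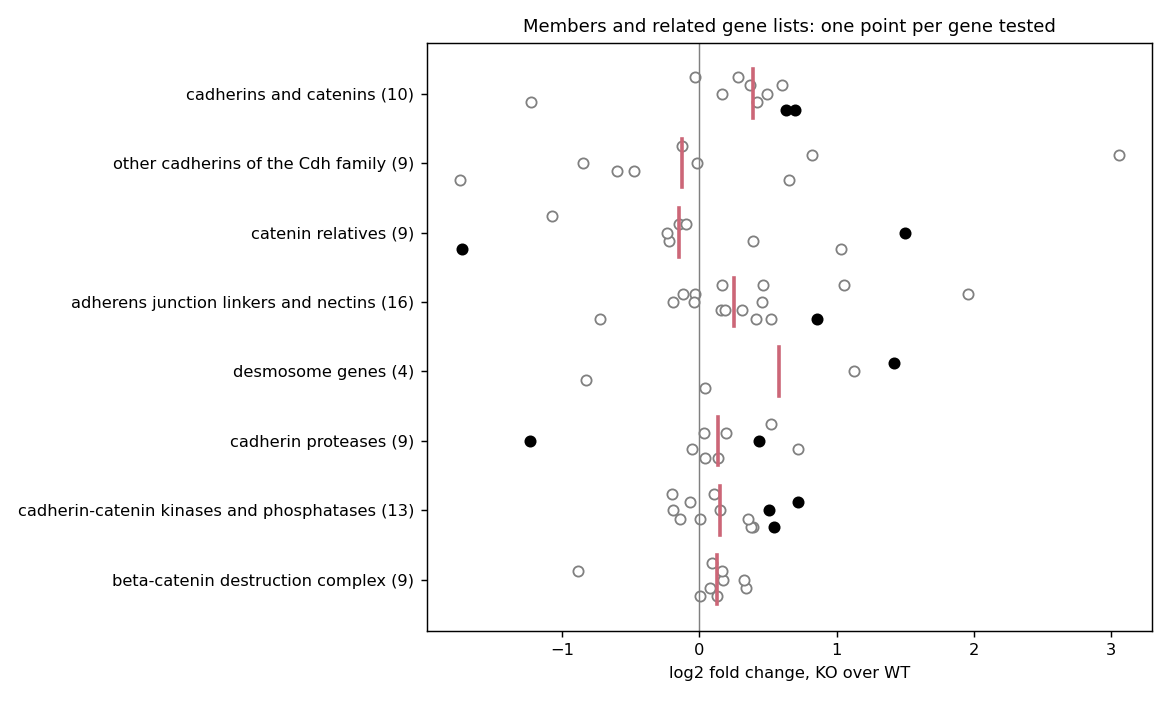
Log2 fold change of KO over WT for the genes tested among the 10 members and the 7 related lists, 1 point per gene, with the number tested in brackets. Filled points have an adjusted p under 0.01 and red bars are list medians, which run from -0.15 for the catenin relatives to 0.58 for the 4 desmosome genes, with the members at 0.39.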

How the data were processed

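RNA-seq of 6 cultures was analysed, with genotype and replicate number from the sample titles. Per the methods and the submitters' processing notes, strand-specific poly(A) libraries were aligned to GRCm38/mm10 with HISAT2 2.1.0. The authors deposited raw counts for 16982 genes and FPKM from Cufflinks 2.1.1 for 12633. The counting program and its use of strand are not given in the sources used here. The deposited table also holds the authors' fold changes and FDR values, which were not used. Counts were fitted with edgeR 4.0.16 in R 4.3.3 (TMM, filterByExpr defaults, quasi-likelihood test, Benjamini-Hochberg adjustment, log2 fold changes of KO over WT). SE is the absolute log2 fold change over the square root of F. The floor of 3 counts covers counting error only. Alternatives were limma 3.58.1 on log2 (FPKM + 0.1), DESeq2 1.42.0, other scalings and filters, an adjusted p under 0.05, the replicate block and each library left out. A term for Y-linked transcripts was added after the data were seen. Fits were tested on simulated data with larger changes than those of any member and without an outlying library. This does not show how they perform at the changes of the members or with KO replicate 3. The members and lists were chosen with earlier results of these data known. Named are all members, Rnf20, Cdh1, and of each list up to 4 genes past the threshold and the most abundant per kilobase, and of the marker lists (fibroblast, epithelial, endothelial, macrophage, skeletal muscle, Schwann and neural crest) those at 0 and the most abundant; others are said to be named after their values were seen. One marker that this rule would name is not reported here.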

Additional observations from a re-analysis of the deposited data

How the results depend on the processing

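The count of members higher in KO cells, 2 with all libraries, was 4 with DESeq2, 4 at an adjusted p under 0.05 (16.4% of all genes), 0 with the replicate block, 0 with a term for Y-linked transcripts (chosen after seeing the data), and 0 to 7 with a library left out. With the term for Y-linked transcripts Cdh2 and Cdh13 each had a log2 fold change of 0.59. Their adjusted p in the edgeR quasi-likelihood test was 0.0728 and 0.0750, and 1 of all genes was higher and 0 lower in that fit. The count lower, 0 in the main comparison, was 1 (Cdh3) with DESeq2 and at an adjusted p under 0.05 (16.6% of all genes) and 0 to 1 with a library left out. By the study's fuller rule it was 1 instead of 0 with DESeq2 and at an adjusted p under 0.05. Genes of the 7 lists that were higher, 7 in the main comparison, were 4 by library size only, against 510 of 13386 genes. They were 19 with DESeq2 (13.8% of all genes) and 21 at an adjusted p under 0.05 (16.4% of all genes). With limma on log2 FPKM they were 4, against 466 of 12633 genes. They were 0 with the replicate block and 0 to 26 with a library left out. Those lower, 2 in the main comparison, were 5 with DESeq2 (13.1% of all genes) and 5 at an adjusted p under 0.05 (16.6% of all genes). With limma on log2 FPKM 1 was lower, against 437 of 12633 genes. The count lower in these lists was 0 with the replicate block and 0 to 6 with a library left out. Under the replicate block 0 of all genes passed. Deviations of same-numbered libraries from their group means correlated at -0.066, 0.037 and 0.011, so no pairing by number was seen. With 3 libraries per genotype and KO replicate 3 far from the other KO libraries, this cannot exclude pairing. Without Cdh13 in the sum, the share differences of Cdh2 and Cdh3 were 4.46 and -2.37 percentage points. With a library left out the log2 fold change of Jup ran from -0.11 to 0.063 and that of Cdh4 from -0.12 to 0.77. The log2 fold change of Jup was 0.0077 with a term for Y-linked transcripts, 0.033 without WT replicate 3 and 0.063 without KO replicate 3, and that of Cdh4 was -0.12 without KO replicate 3. The causes were not tested. Leaving out a WT library called 0 to 3 of all genes in a direction. Rnf20 ranged from -2.60 to -2.51 with a library left out. Depth limits Cdh4 most, at 16 to 47 counts per library.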

Other observations

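Cdh17, which encodes the liver-intestine cadherin, was outside the rule for named genes and was picked after its values were seen. It held 0.713, 0 and 0.190 CPM in WT replicates 1 to 3 and 2.43, 2.94 and 2.29 CPM in KO replicates 1 to 3, without overlap. Its adjusted p was 0.0300 from edgeR's quasi-likelihood test, and 0.00312 without KO replicate 3. Dsc2, which encodes the desmosomal cadherin desmocollin-2, was seen in the same way. It was at 2.33 ± 0.413 CPM in WT and 5.25, 5.03 and 4.95 CPM in KO (log2 fold change 1.12, adjusted p = 0.0103 from the same test). Pvr, a nectin-like adhesion receptor, was at 18.1 ± 0.574 CPM in WT and 29.1, 33.3 and 50.4 CPM in KO (log2 fold change 1.06, adjusted p = 0.0120), and Magi1, a junctional scaffold, at 45.9 ± 3.27 CPM in WT and 28.6, 32.1 and 22.8 CPM in KO (log2 fold change -0.72, adjusted p = 0.0112).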
